A study of Mus musculus with 3 samples.

Results

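The EGR, NR4A and T cell signal reporter genes are 10 genes whose RNA is read as a record of signalling through the T cell receptor: Egr1, Egr2 and Egr3, Nr4a1, Nr4a2 and Nr4a3, Nab2, Cd69, Cd5 and Itm2a. They were chosen by gene symbol, and 20 of 45037 probe sets besides controls carried one of these symbols as their only symbol, out of 18193 genes named in all. Memory phenotype CD4 T cells, the fraction of helper T cells that bears surface markers of earlier activation, had been sorted from the spleens of BALB/c mice to a purity above 99% and hybridised as labelled total RNA to Affymetrix mouse arrays. The 2 HFD arrays (HFD 1 and HFD 2) held cells from mice on a high fat diet with 60 kcal% fat, and the single ND array held cells from mice on a normal diet, each diet given for 10 weeks. No transgene, deletion or drug is named for either group. The sources used here do not give the age or sex of the mice, how many stood behind each array, or the sorting markers. Nothing says that the HFD arrays came from separate mice, so the spread behind the p-values is that of these arrays alone and may be technical.

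Binding of the T cell receptor opens calcium entry, which activates the phosphatase calcineurin and NFAT factors, and also switches on the RAS and ERK kinases, which act through ELK factors and SRF. Both arms converge on immediate early genes, among them the EGR zinc finger factors and the NR4A orphan nuclear receptors, whose RNA appears within an hour of stimulation and decays fast. Nr4a1, which encodes NUR77, and surface CD69 and CD5 are used in mice as reporters of how strongly a T cell has been, or is being, stimulated.

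Intensity is linear, and its median over probe sets was 69.7 on HFD 1, 67.4 on HFD 2 and 78.3 on the ND array. Differences are given as HFD minus ND on the log2(intensity + 17.65) scale, where the offset is the 25th percentile of all values, and folds are taken from it, which understates changes of dim genes. The test was limma's moderated test over 10341 genes, each read from its brightest probe set, with Benjamini-Hochberg adjustment and adjusted p-values under 0.05 counted as calls. It called 20.5% of the genes higher and 29.2% lower in HFD, 49.6% in all, and the median gene lay 0.15 below ND. Calls higher in HFD made up 41.3% of all calls on the deposited scale and 56.8% with each array centred on its median. The ND array has no replicate and was assumed to vary like the HFD arrays, and any handling it did not share with them cannot be told apart from diet.

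The label of the cells was set against marker genes. Of the 7 T cell markers 6 were read, led by Cd3d at 19833 and 19515 in HFD and 22919 in ND. All 6 were called lower in HFD (summed intensity 53628 and 50318 in HFD, 67433 in ND). Cd4 was the dimmest of these 6, at 609 and 377 in HFD and 911 in ND. B cell markers (7 of 8 read) summed to 2515 and 2801 in HFD and 473 in ND, and Ms4a1 (1612 and 1837 in HFD, 56.8 in ND) and Fcer2a (524 and 644 in HFD, 31.6 in ND) made up most of the rise and were called higher. Both genes passed the filter on low values (a mean above 71.4 over the arrays) only through the HFD arrays, where they were high. The other B cell markers did not share one direction: Cd79a read 51.2 and 49.4 in HFD and 5.74 in ND, but Cd79b read 190 and 168 in HFD and 219 in ND (not called) and Pax5 read 27.0 and 6.86 in HFD and 65.1 in ND. Macrophage markers (9 of 9 read) summed to 899 and 1079 in HFD and 2441 in ND, and 5 were called lower in HFD. Of these, C1qb (65.6 and 34.8 in HFD, 128 in ND) and Vcam1 (45.8 and 92.9 in HFD, 268 in ND) passed the filter only through the ND array. Dendritic cell markers (5 of 7 read) summed to 699 and 765 in HFD and 1568 in ND, neutrophil markers (6 of 7) to 605 and 657 in HFD and 182 in ND, Cd8a and Cd8b1 to 581 and 715 in HFD and 449 in ND, and erythroid markers (3 of 5) to 46.4 and 33.4 in HFD and 69.0 in ND. NK cell markers (4 of 5) summed to 3980 and 3667 in HFD and 4769 in ND, a sum set by Nkg7 (3428 and 3025 in HFD, 4353 in ND, called lower), while Eomes was called higher (471 and 558 in HFD, 367 in ND) and Ncr1 read 66.9 and 82.8 in HFD and 46.2 in ND. EGR factors, NR4A receptors and CD69 are also induced in activated B cells and myeloid cells, and the part of such cells in the differences below was not tested.

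All 10 genes passed the filter on low values, a mean intensity above 71.4 over the 3 arrays. Of these, 3 were called higher in HFD (Itm2a, Nr4a3 and Cd69), 2 were called lower (Nr4a2 and Egr1) and 5 were not called (Egr2, Egr3, Nr4a1, Nab2 and Cd5). The share called, 5 of 10, is near the 49.6% of all genes, so the count does not set the group apart. Both HFD arrays lay on the same side of the ND array for 8 of the 10, against 90.5% of all genes tested. By size alone, Itm2a and Nr4a3 were at least 2-fold above ND in both HFD arrays, as were 6.00% of all genes, and Nr4a2 was at least 2-fold below, as were 2.60%.

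**Figure D1:**
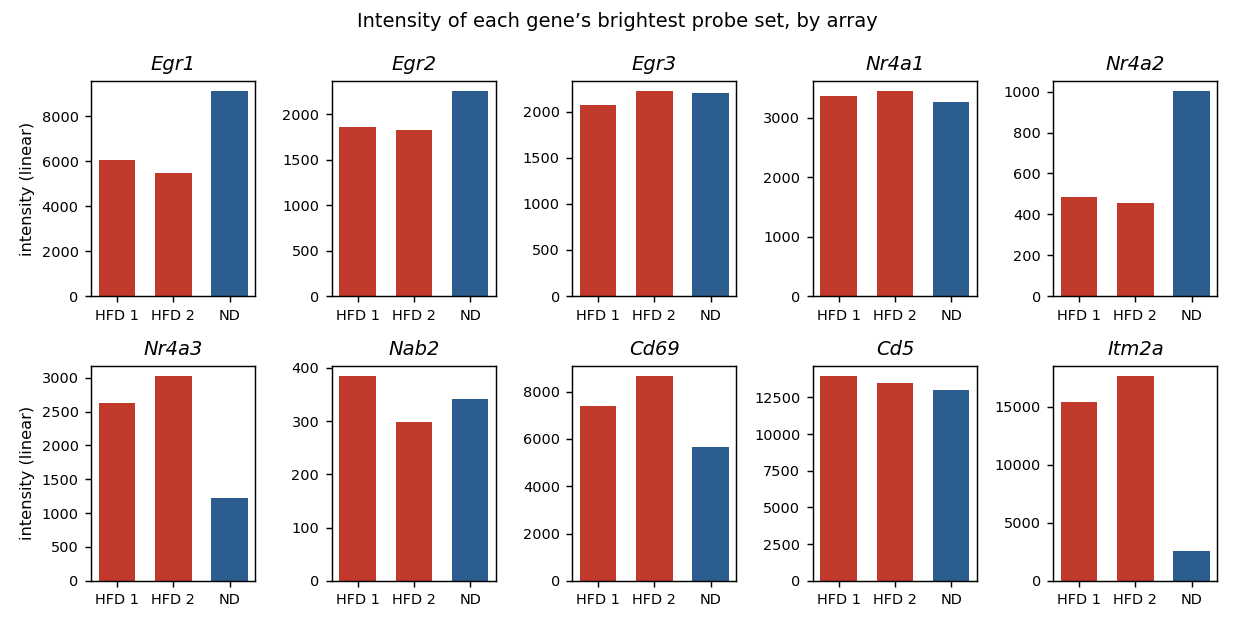
Linear intensity (vertical axes, each starting at 0 with a scale of its own) of the brightest probe set of each of the 10 genes on HFD 1, HFD 2 (red) and the ND array (blue), 1 bar for each array. Itm2a and Nr4a3 are more than 2-fold higher on both HFD arrays, Nr4a2 is under a ratio of 0.5 to ND on both, and Nr4a1 and Cd5 differ little between arrays.

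The NR4A family is made of 3 orphan nuclear receptors that bind closely related DNA elements and need no known ligand. Of these, 1 was called higher in HFD, 1 lower and 1 not called. For Nr4a3, which encodes NOR1, the brightest probe set (1438796_at) read 2631 and 3025 in HFD and 1219 in ND. Both HFD arrays lay above the single ND array, and 90.5% of all genes tested had both on the same side of it. Nr4a3 was 2.29-fold higher in HFD (log2 1.20 ± 0.13 SE, limma adjusted p = 9.7e-06), rank 487 from the top of the 10341 genes. In a bulk sample, more cells that express a gene and more RNA in each cell cannot be told apart.

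Nr4a2, which encodes NURR1, went the opposite way. Its brightest probe set (1455034_at) read 486 and 457 in HFD and 1002 in ND, so both HFD arrays were low. Nr4a2 was 2.09-fold lower in HFD (log2 -1.06 ± 0.15 SE, limma adjusted p = 1.1e-04), rank 339 from the bottom. Nr4a1 read 3365 and 3443 in HFD and 3259 in ND. Its HFD arrays lay just above ND, by a log2 of 0.05 and 0.08. The mean difference of 0.06 ± 0.11 SE was not called (limma adjusted p = 0.655), and its sign turned under quantile normalization (-0.0032).

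The changes from ND were then set against each other on the same HFD array, which sets scaling shared by all genes aside. The change of Nr4a3 exceeded that of Nr4a2 by a log2 of 2.12 on HFD 1 and 2.40 on HFD 2. The change of Nr4a3 exceeded that of Nr4a1 by 1.05 and 1.22, and that of Nr4a1 exceeded that of Nr4a2 by 1.06 and 1.18. These are differences between the changes of separate probe sets, and they were not tested. The order of the changes was Nr4a3 above Nr4a1 above Nr4a2 on both HFD arrays. Each change is taken from the same single ND array, so an error in its readings enters both orders alike.

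The DNA upstream of these genes is shown because the family changed in different directions under promoters that share an element. The sequences are RefSeq windows of GRCm38.p6 covering the 250 bases before the start of Nr4a1 (chr15:101266596-101266845, plus strand), Nr4a2 (chr2:57124004-57124253, minus strand) and Nr4a3 (chr4:48045055-48045304, plus strand), each printed 5′ to 3′ along its gene. Capitals mark TGACG, the core of the cAMP response element bound by CREB, or its reverse complement CGTCA.
Nr4a1: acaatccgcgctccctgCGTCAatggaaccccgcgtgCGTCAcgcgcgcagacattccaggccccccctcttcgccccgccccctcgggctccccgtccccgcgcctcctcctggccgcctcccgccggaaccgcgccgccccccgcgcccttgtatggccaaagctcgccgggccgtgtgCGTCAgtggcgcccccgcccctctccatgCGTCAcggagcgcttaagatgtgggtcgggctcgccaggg
Nr4a2: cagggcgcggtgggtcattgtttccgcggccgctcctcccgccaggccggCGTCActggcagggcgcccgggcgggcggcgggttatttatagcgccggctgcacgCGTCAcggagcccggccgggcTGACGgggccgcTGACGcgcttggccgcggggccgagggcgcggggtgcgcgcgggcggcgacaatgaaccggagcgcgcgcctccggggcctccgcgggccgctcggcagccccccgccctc
Nr4a3: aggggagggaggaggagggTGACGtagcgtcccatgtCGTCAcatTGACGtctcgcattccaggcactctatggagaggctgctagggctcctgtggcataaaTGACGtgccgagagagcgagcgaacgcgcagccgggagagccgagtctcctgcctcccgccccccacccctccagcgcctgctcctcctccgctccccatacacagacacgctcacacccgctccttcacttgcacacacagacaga

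Each of the 3 windows held 4 copies of TGACG on either strand. Among the 7 genes searched, Egr2 (2 copies in a window) and Itm2a (1 copy) also held it. Of 32851 such windows in the table, in which a gene may have several, 17.8% held at least 1 copy and 45 windows, 0.14%, held 4 or more. In Nr4a1 the copies began 233, 213, 69 and 40 bases before the start, in Nr4a2 200, 144, 123 and 111, and in Nr4a3 231, 213, 205 and 147. The whole palindrome TGACGTCA was in none of the 3, and neither was AAAGGTCA, the element that NR4A monomers bind (1.3% of all windows). The Nr4a1 window alone among the 7 genes searched held GCGGGGGCG, a site for EGR factors found in 2.6% of windows, beginning 60 bases before the start. The other elements searched, each on both strands, were GCGTGGGCG for EGR factors (0.5% of windows), TGACTCA for AP-1 (4.5%) and GGAAAA for NFAT (20.4%), and the NR4A windows held none of them. Among the genes searched, only Egr2 had a match to GGAAAA. A match in a window is a description and shows no binding, and a missing match says only that these letters are not there.

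Probe sets of Nr4a2 did not all read alike. Of its 6, the fit over all 18953 probe sets past the filter called 3 lower in HFD: 1455034_at (above), 1450750_a_at at 304 and 254 in HFD against 507 in ND (log2 -0.83 ± 0.20 SE, limma adjusted p = 0.00344) and 1447863_s_at at 271 and 256 against 532 (log2 -0.97 ± 0.19 SE, limma adjusted p = 8.6e-04). The other tested one, 1450749_a_at, read 127 and 121 in HFD and 142 in ND and was not called (log2 -0.18 ± 0.29 SE, limma adjusted p = 0.648). The 2 remaining Nr4a2 probe sets were below the filter and read the other way: 1433423_at gave 42.1 and 79.8 in HFD and 7.39 in ND, and 1433422_at gave 57.1 and 50.7 in HFD and 18.9 in ND. The value of Nr4a3 rests on a single probe set, since its others read 17.3 and 20.5 in HFD and 10.8 in ND (1421080_at) and 1.26 and 5.0 in HFD and 6.61 in ND (1421079_at), all near or under the offset.

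The EGR family is made of zinc finger factors that bind GC-rich elements. EGR1 is the fastest induced, while EGR2 and EGR3 hold back T cell activation and are linked to anergy. Egr1 (1417065_at) read 6072 and 5500 in HFD and 9118 in ND. Both HFD arrays were low, and Egr1 was 1.58-fold lower in HFD (log2 -0.66 ± 0.10 SE, limma adjusted p = 1.5e-04). The call held under each alternative fitted, with log2 differences of -0.80 to -0.50.

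Egr2 has 2 probe sets, and they gave different calls. The brighter (1427683_at) read 1856 and 1825 in HFD and 2254 in ND (log2 -0.29 ± 0.12 SE, limma adjusted p = 0.0606). The other (1427682_a_at) read 1559 and 1251 in HFD and 2274 in ND and was called lower in the fit over probe sets (log2 -0.70 ± 0.15 SE, limma adjusted p = 0.00125). On both, the HFD arrays lay below ND. The gene itself was called lower when its probe sets were averaged (log2 -0.49, limma adjusted p = 0.0144), under quantile normalization (adjusted p = 0.0432) and with a robust variance model (adjusted p = 0.0482), and with arrays centred its difference was -0.14 (adjusted p = 0.441).

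Egr3 did not follow Egr1. Its brighter probe set (1436329_at) read 2067 and 2220 in HFD and 2204 in ND, with ND between the HFD arrays. The difference of -0.04 ± 0.12 SE on the log2 scale was not called (limma adjusted p = 0.800), and its sign turned with arrays centred (0.11) and with probe sets averaged (0.07). The dimmer one (1421486_at) read 119 and 92.7 in HFD and 90.3 in ND (log2 0.18 ± 0.33 SE, limma adjusted p = 0.682). The change of Egr3 exceeded that of Egr1 by a log2 of 0.49 on HFD 1 and 0.74 on HFD 2, and that of Egr2 exceeded that of Egr1 by 0.31 and 0.43, differences that were not tested.

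Immediate early EGR promoters carry CArG boxes, the sites of SRF. Of the genes searched, Egr2 alone had a match to the CArG consensus, which 1.5% of windows hold. The 2 matches, each 72 bases before one of its RefSeq starts, are shown with 10 bases on either side on the plus strand of GRCm38.p6 (chr10:67537484-67537513 and chr10:67537787-67537816), and capitals mark the box.
Egr2 upstream box: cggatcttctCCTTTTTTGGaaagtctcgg
Egr2 downstream box: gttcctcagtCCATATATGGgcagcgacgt

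The RNA of Srf itself read 1070 and 1053 in HFD and 1513 in ND and was called lower in HFD (log2 -0.50, limma adjusted p = 0.00677), as were 29.2% of all genes. Srf was picked after its value was seen, and a link between it and Egr2 was not tested. Windows before the starts of Egr1, Egr3 and Cd69 were not used here.

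NAB2 is a corepressor that binds EGR factors and is itself induced by them, closing a feedback loop. Nab2 (1417930_at) read 385 and 299 in HFD and 342 in ND. The HFD arrays fell on either side of ND, and the difference of -0.01 ± 0.20 SE on the log2 scale was not called (limma adjusted p = 0.970). Its sign turned under quantile normalization and with arrays centred (0.14 in each). The SD of Nab2 over the HFD arrays was 60.9 around a mean of 342. Nab1, the related corepressor, was 1.33-fold lower in HFD, at 4861 and 4365 against 6133 (limma adjusted p = 0.00578).

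CD69, CD5 and ITM2A are membrane proteins. CD69 is a C-type lectin that appears early after stimulation and keeps cells in tissue by taking the sphingosine phosphate receptor S1PR1 off the surface. Cd69 (1428735_at) read 7392 and 8664 in HFD and 5668 in ND. Both HFD arrays were high, and Cd69 was 1.41-fold higher in HFD (log2 0.50 ± 0.11 SE, limma adjusted p = 0.00193). The difference was 0.38 on HFD 1 and 0.61 on HFD 2, and the call ended without a variance trend (adjusted p = 0.0693). S1pr1, a gene whose RNA rather than surface protein is read here, gave 1262 and 842 in HFD and 2077 in ND (log2 -1.0 ± 0.19 SE, limma adjusted p = 8.8e-04).

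CD5 is a scavenger receptor that dampens the T cell receptor, and its level is set during thymic selection by the strength of self recognition. Cd5 (1418353_at) read 13960 and 13510 in HFD and 12992 in ND. Its HFD arrays lay just above ND, at ratios of 1.07 and 1.04. The difference of 0.08 ± 0.08 SE on the log2 scale was not called (limma adjusted p = 0.420), and it was -0.14 under quantile normalization (adjusted p = 0.121). Cd6, the related receptor, read 4792 and 4684 in HFD and 4604 in ND and was not called either (log2 0.04 ± 0.10 SE, limma adjusted p = 0.755).

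ITM2A is a type II membrane protein with a BRICHOS domain, induced in thymocytes during positive selection and in activated T cells, and known in mice as a target of GATA3. Itm2a was the member with the largest difference. Its brighter probe set (1423608_at) read 15385 and 17659 in HFD and 2564 in ND. The HFD arrays stood at ratios of 6.0 and 6.89 to ND, and Itm2a was 6.39-fold higher in HFD (log2 2.68 ± 0.10 SE, limma adjusted p = 2.1e-09), rank 49 of 10341 genes. Its second probe set (1451047_at) read 5502 and 6400 in HFD and 999 in ND, a difference of nearly the same size (log2 2.55 ± 0.12 SE, limma adjusted p = 3.1e-10 in the fit over probe sets). Across the alternatives fitted, Itm2a stayed called higher in HFD with log2 differences of 2.60 to 2.83.

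The change of Itm2a exceeded that of Cd5 by a log2 of 2.47 on HFD 1 and 2.72 on HFD 2, and that of Cd69 by 2.19 and 2.16, which were not tested. Its family relatives moved the opposite way. Itm2b read 20154 and 18817 in HFD and 28318 in ND (log2 -0.54 ± 0.07 SE, limma adjusted p = 7.0e-05), and Itm2c read 5251 and 4467 in HFD and 8366 in ND (log2 -0.79 ± 0.11 SE, limma adjusted p = 9.2e-05). The Itm2a window (chrX:107403361-107403610 of GRCm38.p6, minus strand, 250 bases before the start) is shown for contrast with the NR4A windows, since it held a single TGACG, beginning 16 bases before the start, and none of the other elements searched.
Itm2a: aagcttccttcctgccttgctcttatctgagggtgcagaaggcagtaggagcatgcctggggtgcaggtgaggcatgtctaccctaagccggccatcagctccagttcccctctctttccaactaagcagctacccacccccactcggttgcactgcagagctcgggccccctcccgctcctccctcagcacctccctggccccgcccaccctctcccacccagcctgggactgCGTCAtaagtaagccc

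**Figure D2:**
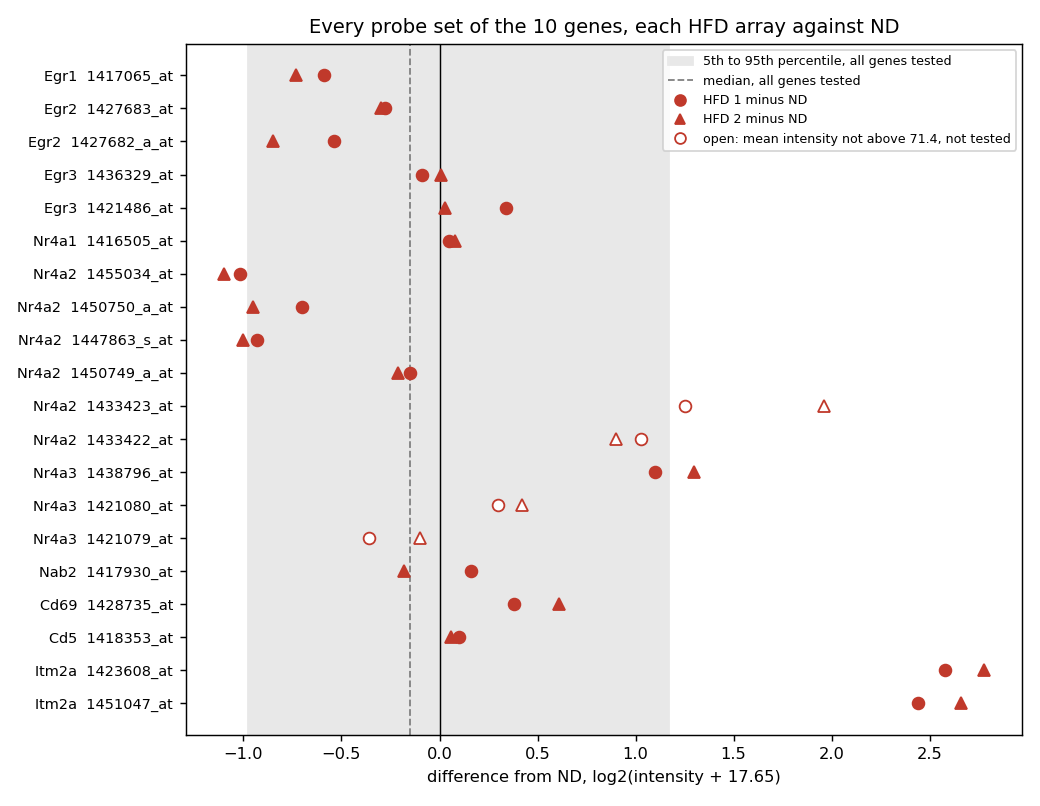
Difference of HFD 1 (circles) and HFD 2 (triangles) from ND on the log2(intensity + 17.65) scale (horizontal axis) for each of the 20 probe sets of the 10 genes (rows); open symbols are the 4 probe sets not tested. The band spans the 5th to 95th percentile of all genes tested (-0.98 to 1.17), and both Itm2a probe sets lie to its right on both arrays.

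Over probe sets, 16 of the 20 passed the filter, of which 4 were called higher in HFD, 5 lower and 7 not called. Of all 18953 probe sets, 18.2% were called higher and 25.1% lower, 43.4% in all. The median difference of the 10 genes was 0.03 on the log2 scale, against -0.15 over all genes tested, with a range of -1.06 for Nr4a2 to 2.68 for Itm2a. Relative to the median of all genes, Nr4a1 lay 0.21, Cd5 0.23, Nab2 0.14 and Egr3 0.11 higher on the log2 scale, while Egr2 lay at -0.14 and Egr1 at -0.50.

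**Figure D3:**
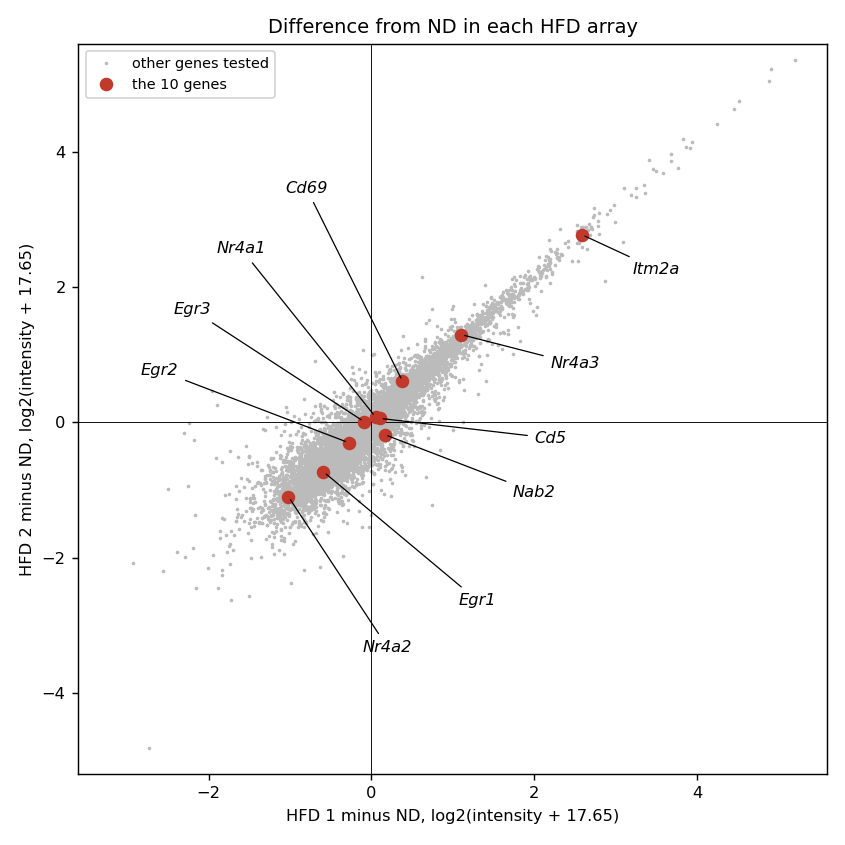
Difference from ND on HFD 1 (horizontal axis) and HFD 2 (vertical axis), both on the log2(intensity + 17.65) scale, for the 10 genes (red, named) and all other genes tested (grey). Itm2a and Nr4a3 lie at the upper right, Nr4a2 and Egr1 at the lower left and the other members nearer 0; both axes share the same ND array, so points lie along the diagonal by construction.

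Genes with nearly the same pair of differences were sought by Euclidean distance over HFD 1 minus ND and HFD 2 minus ND. Nearest to Egr2 were Laptm5 (0.008), Pbx2 (0.009) and 4833438C02Rik (0.011), and nearest to Nr4a1 were Nap1l4, Yeats2 and Taf6 (0.003 each). Within a distance of 0.1 lay 514 genes for Egr2 and 499 for Nr4a1, so 3 arrays hardly tell such patterns apart.

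Genes of the signalling arms upstream of the members were counted next, beside the 20.5% of all genes called higher and the 29.2% called lower. Of 33 genes of calcium entry, calcineurin and NFAT, 27 were tested, of which 19 were called lower and 2 higher (median log2 -0.52, against -0.15 over all genes). The catalytic subunit gene Ppp3ca read 516 and 340 in HFD and 967 in ND (log2 -1.17 ± 0.21 SE, limma adjusted p = 5.5e-04). The calcium channel gene Orai2 and the calcium release channel gene Itpr2 were 2.21-fold and 2.06-fold lower, with the other probe set of Orai2 at log2 -0.52. Fkbp1a, which encodes the binding partner of the drug FK506, and Hdac7 were 1.71-fold and 1.55-fold higher.

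Of 29 genes of the RAS, RAF, ERK and SRF arm, 23 were tested, of which 12 were called lower, 3 higher and 8 not called (median log2 -0.35). The list mixes genes that promote RAS and ERK signalling with genes that restrain it, so the count gives no direction of signalling. Across the processing alternatives run, between 9 and 12 were called lower. Rasgrp1, the RAS activator that answers to diacylglycerol in T cells, read 3896 and 3599 in HFD and 6831 in ND (log2 -0.86 ± 0.10 SE, limma adjusted p = 2.7e-05; its other probe sets -0.56 and -0.19). Of the feedback inhibitors, Spred1 and Spry1 were 2.08-fold and 1.99-fold higher in HFD. Spred2 was 1.66-fold lower, at 686 and 593 in HFD against 1069 in ND (limma adjusted p = 0.00166). Spry2 was called 2.08-fold lower but was dim, at 47.0 and 61.3 in HFD against 131 in ND. It passed the filter on low values (71.4) only through the ND array, where it was high, so its call carries little weight. The other probe sets of Spred1 read log2 0.21 and 0.33.

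Of 23 genes that dampen T cell signalling or mark anergy, several of them known targets of EGR2 and EGR3, 18 were called lower in HFD and 2 higher (median log2 -0.54). Rnf128, the anergy ubiquitin ligase GRAIL, was 2.47-fold lower, at 463 and 422 in HFD against 1116 in ND. Cblb, a ubiquitin ligase known to be induced by EGR2 and EGR3, had a mean of 4649 ± 95.9 (SD, n = 2) in HFD against 6330 in ND (log2 -0.44 ± 0.10 SE, limma adjusted p = 0.00237). Ndrg1, another known EGR2 target, was 1.61-fold higher, at 366 and 349 in HFD against 215 in ND.

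Of 34 other immediate early genes, 21 were called lower and 6 higher (median log2 -0.64), a direction that Egr1 and Nr4a2 shared and Nr4a3 did not. Among them Dusp1, a phosphatase of MAP kinases, read 6226 and 5489 in HFD and 14951 in ND, and Rgs2 was 2.52-fold lower. Of the 6 called higher, Myc read 4629 and 5008 in HFD and 777 in ND, and Rel read 833 and 866 in HFD and 422 in ND. Fosl1 read 118 and 138 in HFD and 3.90 in ND, the last under the offset, so the size of its fold depends on the offset. Fosl1 passed the filter on low values only through its HFD arrays. Of 31 later activation genes 27 were tested, of which 12 were called higher and 7 lower (median log2 0.22). Mir155hg, Il2 and Ccl3 were 16.1-fold, 13.6-fold and 7.35-fold higher, while Ifng and Ctla4 were 2.42-fold and 2.0-fold lower. Of 9 egress genes, 6 were tested, with 5 lower and only Ccr7 higher (4.77-fold). These shares were counted and not tested against other genes.

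**Figure D4:**
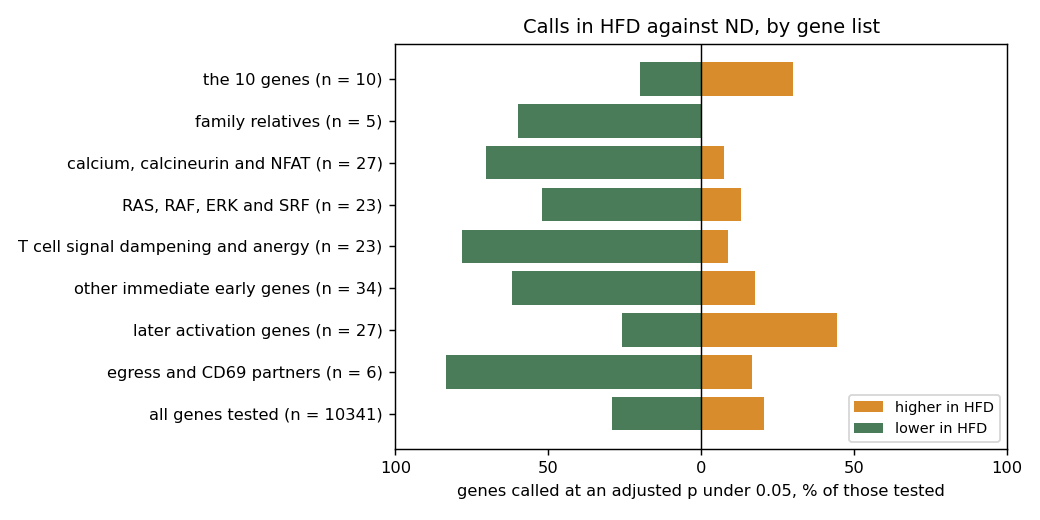
Share of genes tested in each list that limma called higher (orange, to the right) or lower (green, to the left) in HFD at an adjusted p under 0.05, in percent, with the number tested in brackets and all genes in the bottom row. The 10 genes split 3 higher and 2 lower, while the calcium, RAS, dampening and immediate early lists hold more lower than higher calls.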

How the data were processed

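The values are linear intensities per probe set on 3 arrays, as deposited by the authors. They were made with GCOS (the array software of Affymetrix), per the submitters' processing notes, which name no algorithm or background correction. Each array has the same mean (500.0) once 2% of probe sets at each end are trimmed, so a large change of bright genes shifts the rest. Detection calls were not used. Of 45037 probe sets besides 64 controls, 34945 had 1 gene symbol (932 several, 9160 none). Symbols were checked against RefSeq of GRCm38.p6 through Entrez identifiers (34741 matched, 0 changed).

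Differences came from limma 3.58.1 in R 4.3.3 (lmFit, eBayes with a trend, two-sided) over all 10341 genes, with 1 residual degree of freedom and a median of 11.69 prior ones. For HFD against ND simulated with 10341 genes it called 90.0% of changes of 1 and 100.0% of changes of 2 on the log2 scale, and 0 unchanged genes, with ND varying like HFD. The simulated spread followed a smooth trend with intensity, and only 200 genes changed, whereas 49.6% were called in the data. It therefore does not give the rate of false calls in these data. Members and gene lists were chosen with earlier results of these data known. Of each list, up to 3 called genes in each direction with the largest smaller difference over both HFD arrays could be named, with every member, and for Egr2 and Nr4a1 the 3 nearest genes. Srf, Cblb, Cd6 and Spred2 fall outside this rule and were chosen after their values were seen. Of each marker list the rule named only the brightest gene, so the other marker genes given also fall outside it. Alternatives covered normalization, offset, filter, probe sets, variance model and each HFD array. Python 3.11.15 with numpy 2.4.6, pandas 2.3.3 and matplotlib 3.10.9 made the tables and figures. The number of arrays limits the precision.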

Additional observations from a re-analysis of the deposited data

How the results depend on the processing

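Of 90 tested values of the members under alternatives, 80 kept both direction and call, 1 lost its call (Cd69 without a variance trend, log2 0.50, adjusted p = 0.0693), 3 gained one (Egr2, log2 -0.30, -0.49 and -0.29) and 6 turned sign, none of them called on the deposited scale: Egr3 (0.11 with arrays centred, 0.07 with probe sets averaged), Nr4a1 (-0.0032 under quantile normalization), Nab2 (0.14 under quantile normalization and 0.14 with arrays centred) and Cd5 (-0.14 under quantile normalization). The cause was not tested. Genes called lower over the whole array numbered 3015, and 1922 with no filter, where more dim genes enter. Genes lower by 2-fold or more on both HFD arrays numbered 269, and 125 with arrays centred, 137 with the offset at the median and 513 with no filter; with a single HFD array they were 439 to 632. The dampening list had 1 gene called higher with no filter and 1 without a variance trend, against 2, and the later activation list had 4 called lower without a variance trend, against 7. Leaving out an HFD array leaves no residual degrees of freedom, so those values carry no test. No paired analysis was possible because the ND group holds 1 array. Dim probe sets cannot be told from background.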
